A study of Mus musculus with 12 samples.

Results

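The methyl-CpG binding domain (MBD) proteins Mbd1, Mbd2, Mbd3 and Mbd4 were followed by their mRNAs in mouse embryonic stem (ES) cells after knockdown (KD) of proteins that write, oxidise or bind DNA methylation. Probes were chosen by the accession printed for each spot, and these 4 of the 20659 genes named on the array were read by 7 of its 39429 probes. Mbd1, Mbd2 and Mbd3 had 2 probes each and Mbd4 had 1. All 7 were among the 36113 probes tested, all were well above background on all 12 arrays, and 0 were saturated on any array.

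The MBD is a small domain that recognises cytosine methylated in a CpG, and most proteins that carry it are known as repressors that bring chromatin enzymes to methylated DNA. Mbd2 and Mbd3 are closely related and occupy mutually exclusive forms of the nucleosome remodelling and deacetylase complex NuRD. The mammalian Mbd3 domain has little preference for methylated DNA, and Mbd3 is needed for normal differentiation of ES cells. Mbd1 is known for partnering with histone H3 lysine 9 methylation enzymes, and Mbd4 is a DNA glycosylase that removes thymine or uracil left by deaminated cytosine.

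RNA came from E14 cells, a male mouse ES cell line grown on gelatin without feeder cells in medium with serum and LIF. All groups, the control included, had been transfected transiently with esiRNAs, which are pools of short RNAs cut from a longer double strand, and were collected 48 hr later. Each of the 6 groups had 2 one-colour Agilent arrays. The control was EGFP KD. The KDs of MBD genes were Mbd2 KD and Mbd3 KD, and the others were Chd4 KD (the NuRD ATPase), Dnmt1 KD (the maintenance DNA methyltransferase) and Tet1 KD (the dioxygenase that oxidises 5-methylcytosine). A KD of this kind lowers the mRNA of a whole dish of cells, so fewer cells of a type and less RNA per cell cannot be told apart. Values are log2 of the background-corrected intensity over the array's own 75th percentile. The study's methods call the replicates biological, and the labels name no culture for any array.

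The arrays had 75th percentiles between 1783.5 and 2445.1 and between 76.9% and 95.2% of probes well above background, and were spread over 3 slides. On slide 1 were the first replicates of Dnmt1, EGFP, Mbd2 and Mbd3 KD. On slide 2 were both Tet1 KD arrays with Chd4 KD replicate 1 and EGFP KD replicate 2. Slide 3 had no control, only the second replicates of Chd4, Dnmt1, Mbd2 and Mbd3 KD. Of 8 ES cell markers, 7 were well above background on all 12 arrays, the listed Nanog probe was not, and 0 were called in any KD.

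The array labelled Tet1 KD replicate 1 and the array labelled Mbd2 KD replicate 1 went against their labels. Mbd2 probe A_66_P133043 had a log2 difference from the EGFP KD mean of -1.74 on the first of these and of -0.23 on the second. Tet1 probe A_55_P2122997 ran the other way, with -0.02 on the first and -1.78 on the second. The other Tet1 probe, A_51_P512172, gave 0.23 and -1.18. By these probes the partner arrays followed their labels, with -1.77 for Mbd2 probe A_66_P133043 on Mbd2 KD replicate 2 and -1.81 for Tet1 probe A_55_P2122997 on Tet1 KD replicate 2. The other Mbd2 probe, A_55_P2036526, did not part the arrays in this way, with -0.07 on both Mbd2 KD arrays, -0.19 on Tet1 KD replicate 1 and its lowest value, -0.61, on Tet1 KD replicate 2. No array was moved to another group. Results for the Mbd2 KD and Tet1 KD groups are therefore given as labelled, and the main ones also without these 2 arrays.

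**Figure D1:**
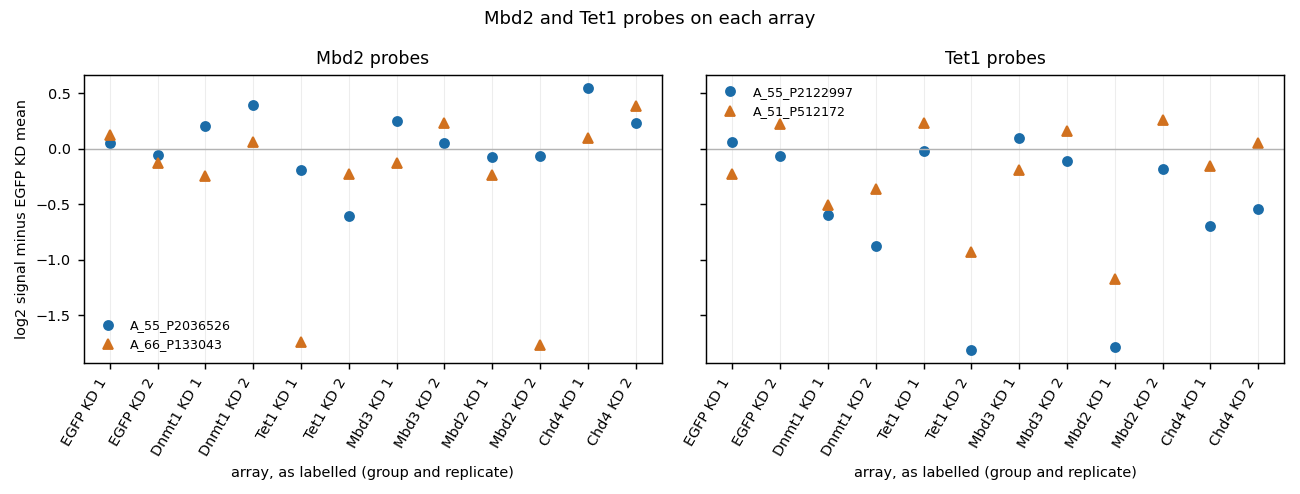
Both probes of Mbd2 (left) and both probes of Tet1 (right) on each of the 12 arrays, as log2 signal minus the mean of the 2 EGFP KD arrays (y axis); the x axis gives each array by its labelled group and replicate. Mbd2 probe A_66_P133043 is low on the arrays labelled Tet1 KD replicate 1 and Mbd2 KD replicate 2, while both Tet1 probes are low on the arrays labelled Tet1 KD replicate 2 and Mbd2 KD replicate 1.

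Mbd3 was the only one of the 4 genes whose probes were called in a comparison with EGFP KD, and it fell in its own KD on both probes. Probe A_66_P127024 had log2 signals of 4.32 and 4.49 in EGFP KD and of 1.33 and 1.56 in Mbd3 KD. Probe A_55_P1960873 had 1.76 and 1.28 in EGFP KD and -1.83 and -1.28 in Mbd3 KD. On both probes the Mbd3 KD arrays lay far below the other 10 arrays, which spanned 4.15 to 4.56 and 0.55 to 1.76. The log2 fold change over EGFP KD was -2.96 for A_66_P127024 (standard error 0.14, 95% interval -3.30 to -2.62, limma adjusted p = 0.0037) and -3.08 for A_55_P1960873 (standard error 0.32, 95% interval -3.84 to -2.31, limma adjusted p = 0.015). This left 12.8% of the EGFP KD signal by the first probe (95% interval 10.1% to 16.3%) and 11.9% by the second (95% interval 6.97% to 20.2%). In Mbd3 KD 2 of the 7 probes were thus called, against 275 of 36113 probes (0.761%) over the whole array, 108 of them lower (0.299%).

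The Mbd3 probes held the 2nd and 3rd lowest log2 fold changes of the 36113 probes tested in Mbd3 KD, A_55_P1960873 ahead of A_66_P127024, and A_66_P127024 had the lowest p. Within slide 1, where Mbd3 KD replicate 1 shared the slide with EGFP KD replicate 1, the log2 differences were -2.99 and -3.59 for A_66_P127024 and A_55_P1960873. Mbd3 KD replicate 2 shared slide 3 with no control, and differed there from Mbd2 KD replicate 2 by -2.32 on A_55_P1960873. Leaving out the 2 arrays at odds with their labels could not change the size of the fall, since neither belongs to the groups compared. The adjusted p then rose to 0.058 and 0.0699, and 0 of 36113 probes were called in Mbd3 KD. With only the 4 arrays of the comparison it was 0.46 for both, and the call on A_55_P1960873 was also lost with normexp background correction (0.12), with slide as a block (0.064), and without EGFP KD replicate 1 (0.098), EGFP KD replicate 2 (0.050) or Mbd3 KD replicate 1 (0.10).

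**Figure D2:**
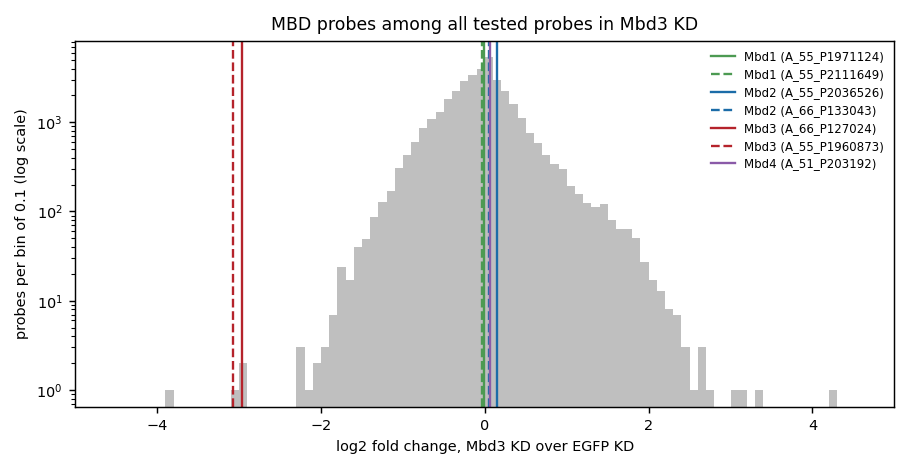
Histogram of the log2 fold change of all 36113 tested probes in Mbd3 KD over EGFP KD (x axis; y axis, probes per bin of 0.1 on a log scale), with the 7 MBD probes as vertical lines. The 2 Mbd3 probes stand at -2.96 and -3.08, at the low end of the distribution, and the 5 probes of Mbd1, Mbd2 and Mbd4 stand between -0.03 and 0.15.

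Mbd3 was also lower in Mbd3 KD than in each of the other KDs. By A_66_P127024 it was 2.88 lower (log2) than in Mbd2 KD, with a limma adjusted p of 0.0025, and by A_55_P1960873 it was 2.83 lower, with a limma adjusted p of 0.025, where 0.493% of all probes were called. Against Dnmt1 KD, Tet1 KD and Chd4 KD the log2 differences ran from -2.97 to -2.80 for A_66_P127024 and from -2.73 to -2.40 for A_55_P1960873, and all 6 passed (limma adjusted p at most 0.039), beside 0.637%, 0.515% and 1.53% of all probes. These calls rested in part on the arrays used. Without the 2 arrays at odds with their labels, A_66_P127024 was still called against Mbd2 KD (-2.91, limma adjusted p = 0.048) and Chd4 KD (-2.80, 0.016) but not against Dnmt1 KD (-2.83, 0.058) or Tet1 KD (-2.82, 0.097), and A_55_P1960873 was called against none, at -2.73 to -2.10. Neither probe was called against Tet1 KD with slide as a block, or against any KD with only the 4 arrays compared. With any 1 of the 12 arrays left out, 1 of the 2 probes was still called against Dnmt1 KD and against Tet1 KD, and 1 or both against Mbd2 KD and Chd4 KD. No probe of Mbd1, Mbd2 or Mbd4 was called between Mbd3 KD and another KD, or between Mbd2 KD and another KD, where 0.0% (Dnmt1 KD and Tet1 KD) and 3.1% (Chd4 KD) of all probes were, and none of these probes was called there without the 2 arrays.

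Outside its own KD, Mbd3 was called on 0 of its 2 probes in any KD. Probe A_66_P127024, the brightest of the 7, had 4.31 and 4.18 in Chd4 KD, 4.56 and 4.27 in Tet1 KD, 4.15 and 4.39 in Dnmt1 KD, and 4.29 and 4.36 in Mbd2 KD. The order of group means from high to low was Tet1 KD, EGFP KD, Mbd2 KD, Dnmt1 KD, Chd4 KD and Mbd3 KD, with overlapping arrays between each pair of neighbours down to Chd4 KD and a step of 2.80 down to Mbd3 KD. Both Chd4 KD arrays lay below both EGFP KD arrays, and 38.4% of all tested probes had no overlap with EGFP KD there. The log2 fold changes of A_66_P127024 in the 4 KDs other than Mbd3 KD lay between -0.16 and 0.01, each with a 95% interval of 0.34 to either side. In Mbd2 KD, which targets the closest relative, the interval ran from -0.43 to 0.26.

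The dimmer Mbd3 probe gave lower values in all 4 of these KDs, but 0 were called. A_55_P1960873 had 1.05 and 0.94 in Chd4 KD, 1.14 and 0.55 in Tet1 KD, 1.47 and 0.89 in Dnmt1 KD, and 1.51 and 1.04 in Mbd2 KD. The arrays of Chd4 KD and Tet1 KD lay below both EGFP KD arrays, and those of Dnmt1 KD and Mbd2 KD overlapped them. Of all tested probes, 38.4% had no overlap with EGFP KD in Chd4 KD and 35.3% in Tet1 KD. The largest difference was in Tet1 KD, at -0.68 (standard error 0.32, 95% interval -1.45 to 0.09, unadjusted p = 0.075, limma adjusted p = 1.0), and A_66_P127024 gave 0.01 there. Without the array labelled Tet1 KD replicate 1, the dimmer probe differed by -0.97. Over the 10 arrays that are not Mbd3 KD, no correlation of the 2 probes was detected (Pearson's r = -0.0081, permutation p = 0.98; Spearman's rho = 0.030, permutation p = 0.94), and r was -0.092 without the 2 arrays farthest from the median of A_66_P127024. Adjusted over the 3 probe pairs tested, these p-values were 0.98 and 0.94.

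Mbd2, the methyl-CpG reader of the other NuRD form, gave no called change in its own KD as labelled, and its 2 probes disagreed. A_66_P133043 had -0.84 and -1.09 in EGFP KD, and -1.19 and -2.73 in Mbd2 KD. It had -2.71 and -1.19 in Tet1 KD, so that 1 array of each of these groups was far below the other 10 arrays, which lay between -1.21 and -0.58. Its log2 fold change was -1.0 in Mbd2 KD (standard error 0.60, 95% interval -2.42 to 0.42, unadjusted p = 0.14, limma adjusted p = 1.0) and -0.99 in Tet1 KD (95% interval -2.41 to 0.43, limma adjusted p = 1.0). In Mbd2 KD 0 of 36113 probes were called by limma (0.0%), with 801 at an unadjusted p under 0.05, and in Tet1 KD 0 were called (0.0%), with 1127.

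Without the 2 arrays at odds with their labels, A_66_P133043 changed by -1.77 in Mbd2 KD (standard error 0.25) and by -0.23 in Tet1 KD (standard error 0.25). Each of these groups then rested on 1 array, which was assumed to vary like the others, and the adjusted p stayed at 0.85 and 1.0. Within slide 2 the array labelled Tet1 KD replicate 1 differed from EGFP KD replicate 2 by -1.62, and within slide 1 the array labelled Mbd2 KD replicate 1 differed from EGFP KD replicate 1 by -0.36.

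The other Mbd2 probe barely differed in Mbd2 KD on either array. A_55_P2036526 had -0.72 and -0.83 in EGFP KD, and -0.85 and -0.84 in Mbd2 KD, a log2 fold change of -0.07 (standard error 0.17, 95% interval -0.47 to 0.33), and of -0.07 also without replicate 1. This interval reaches down to 72.2% of the EGFP KD signal. On Mbd2 KD replicate 2, where A_66_P133043 was 1.77 below the control mean, A_55_P2036526 differed from it by -0.07. The 2 probes carry the same accession, and which stretch of the transcript each one reads was not analysed here. Over the 12 arrays their correlation was positive but did not pass (Pearson's r = 0.41, permutation p = 0.21, adjusted over 3 probe pairs 0.63; Spearman's rho = 0.55, permutation p = 0.071, adjusted 0.21), and r was 0.63 without the 2 arrays farthest from the median of A_55_P2036526 and 0.45 without the 2 lowest of A_66_P133043.

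At 2 decimals A_55_P2036526 lay outside the range of the 2 EGFP KD arrays in 4 of the 5 KDs, with small differences. It was higher in Chd4 KD (-0.22 and -0.54) and Dnmt1 KD (-0.56 and -0.38), and in Mbd3 KD (-0.53 and -0.72) its lower array tied with the higher EGFP KD array. It was lower in Tet1 KD (-0.97 and -1.38) as well as in Mbd2 KD. Non-overlap of this kind was common, at 21.3% to 38.4% of all tested probes per KD, and the probe was called in 0 of the 5. The changes nearest to passing were -0.40 in Tet1 KD (95% interval -0.80 to 0.0001, unadjusted p = 0.050, limma adjusted p = 1.0) and 0.39 in Chd4 KD (95% interval -0.0046 to 0.79, unadjusted p = 0.052, limma adjusted p = 0.40), and 3.12% of all probes were called in Chd4 KD. Without the array labelled Tet1 KD replicate 1 the Tet1 KD value was -0.61.

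**Figure D3:**
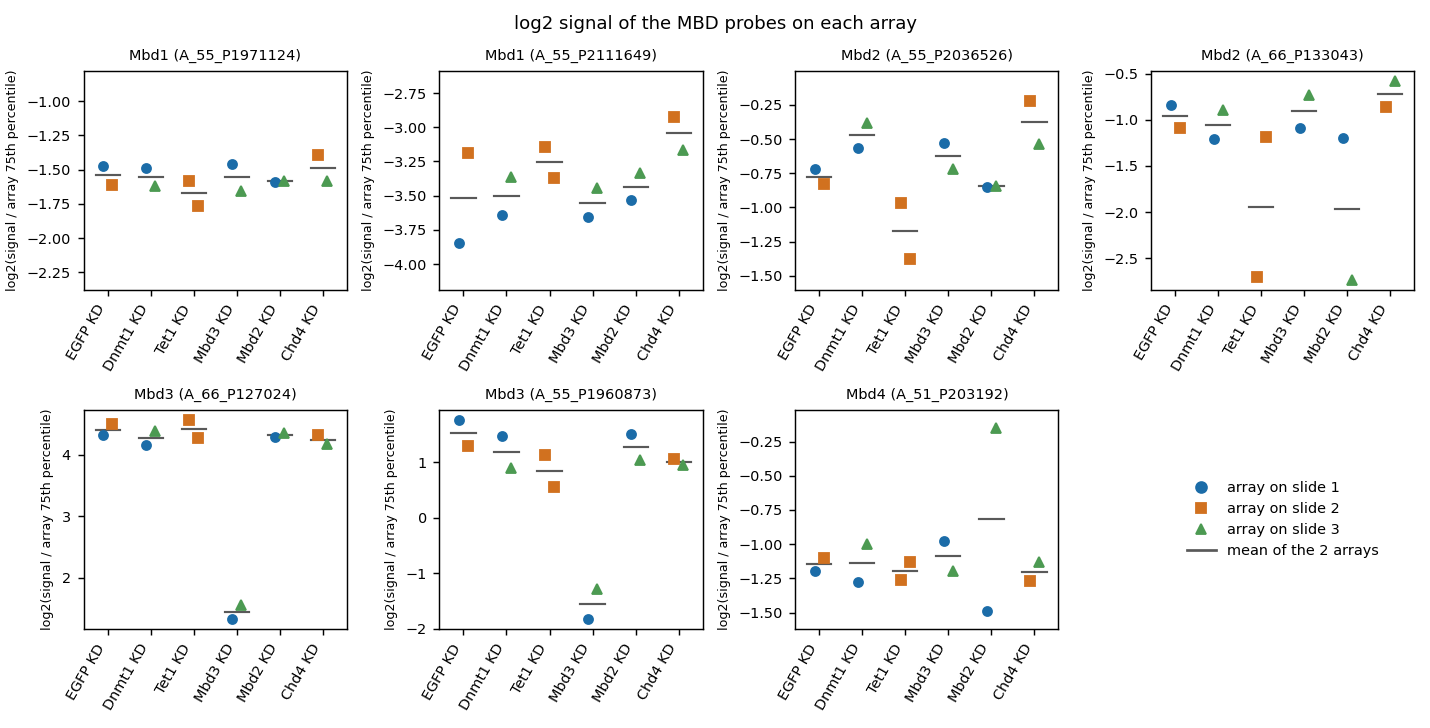
log2 signal over the array's 75th percentile (y axis) of each MBD probe in the 6 groups (x axis); each point is 1 array, its shape and colour give the slide, and the bar is the mean of the 2 arrays. The y axes differ between panels, since levels of different probes are not comparable; the Mbd3 KD arrays stand apart on both Mbd3 probes, and single arrays stand apart on Mbd2 probe A_66_P133043 and on the Mbd4 probe.

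Mbd1 had the smallest range of the 7 probes, on its brighter probe. Over the 12 arrays A_55_P1971124 spanned only 0.37 (log2), from -1.76 to -1.39, and only 6.05% of tested probes spanned as little or less. The EGFP KD arrays gave -1.47 and -1.61, the Mbd2 KD arrays -1.59 and -1.58, and the Mbd3 KD arrays -1.46 and -1.65. The arrays of all neighbouring groups in the order of means overlapped, from Chd4 KD at -1.49 to Tet1 KD at -1.67. Its log2 fold changes over EGFP KD ran from -0.13 to 0.05, with a 95% interval of 0.28 to either side. It differed by -0.22 in Tet1 KD and by -0.04 in Mbd2 KD without the 2 arrays at odds with their labels.

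The dim Mbd1 probe varied more. A_55_P2111649 had -3.84 and -3.19 in EGFP KD, and these 2 control arrays spanned most of its range. It was highest in Chd4 KD, at -2.93 and -3.16, a log2 fold change of 0.47 (95% interval -0.08 to 1.02, unadjusted p = 0.081, limma adjusted p = 0.50). Both values were above the EGFP KD arrays, but 38.4% of all tested probes had no overlap with EGFP KD in Chd4 KD. With normexp background correction the value turned to -0.52, and A_55_P1971124 gave 0.05 in Chd4 KD. No correlation of the 2 Mbd1 probes was detected over the 12 arrays (Pearson's r = -0.089, permutation p = 0.78, adjusted 0.98; Spearman's rho = -0.049, permutation p = 0.88, adjusted 0.94), although r fell to -0.72 without the 2 arrays farthest from the median of A_55_P1971124.

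Mbd4 varied little outside Mbd2 KD, where the 2 arrays parted. A_51_P203192 lay between -1.28 and -0.97 on the 10 arrays outside Mbd2 KD, with -1.19 and -1.10 in EGFP KD. In Mbd2 KD replicate 1 was the lowest of all 12 arrays at -1.49 and replicate 2 was the highest at -0.15. The log2 fold change in Mbd2 KD was 0.33 (standard error 0.38, 95% interval -0.56 to 1.22, limma adjusted p = 1.0), and in the other 4 KDs it lay between -0.05 and 0.06.

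The high Mbd4 value came from Mbd2 KD replicate 2, the array with the lowest signal of Mbd2 probe A_66_P133043. The array labelled Tet1 KD replicate 1, on which that Mbd2 probe was nearly as low, had an Mbd4 signal of -1.26. Within slide 3 Mbd3 KD replicate 2 differed from Mbd2 KD replicate 2 by -1.04 on the Mbd4 probe. Without the 2 arrays at odds with their labels, Mbd4 in Mbd2 KD was 1.0 above EGFP KD on the log2 scale (standard error 0.17, limma adjusted p = 0.85) and rested on that 1 array.

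Taking the 4 genes over all KDs, 31 of the 35 comparisons of a probe with EGFP KD were not of a gene in its own KD. Of these 31 comparisons, 0 were called by limma, where 0.761% of all probes were called in Mbd3 KD, 3.12% in Chd4 KD and 0.0% in each of the other 3 KDs. On all 12 arrays, an unadjusted limma p under 0.05 was found for 0 of the 31, beside 2.22% (Mbd2 KD) to 12.8% (Chd4 KD) of all probes. The log2 fold changes of the 31 ran from -0.99 to 0.47. The value of -0.99 was Mbd2 probe A_66_P133043 in Tet1 KD, which rests on the array labelled Tet1 KD replicate 1. The lowest value of another probe was -0.68. Without the 2 arrays at odds with their labels, the values ran from -0.97 (Mbd3 probe A_55_P1960873 in Tet1 KD) to 1.0 (Mbd4 in Mbd2 KD). Each of these 2 KDs then rested on 1 array, so p-values for them are not given here. In Chd4 KD, with both arrays kept, Mbd2 probe A_55_P2036526 at 0.39 then had an unadjusted limma p of 0.048 (adjusted 0.42). Of all probes, 11.7% had an unadjusted p under 0.05 there. The 0 of the 31 therefore did not hold in that fit. The half-width of the unadjusted 95% interval ran from 0.28 for Mbd1 probe A_55_P1971124 to 1.42 for Mbd2 probe A_66_P133043. A change smaller than its probe's half-width could not reach an unadjusted p under 0.05. Calls were made on the adjusted p, so changes larger than the half-width could also go uncalled. Of simulated probes changed by 1 (log2), 15% to 27% were recovered per KD. In Dnmt1 KD, which targets the maintenance DNA methyltransferase, 0 of the 7 probes and 0 of 36113 probes (0.0%) were called by limma, with 1778 at an unadjusted p under 0.05. Dnmt1 itself differed by -1.99 there (limma adjusted p = 0.38).

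**Figure D4:**
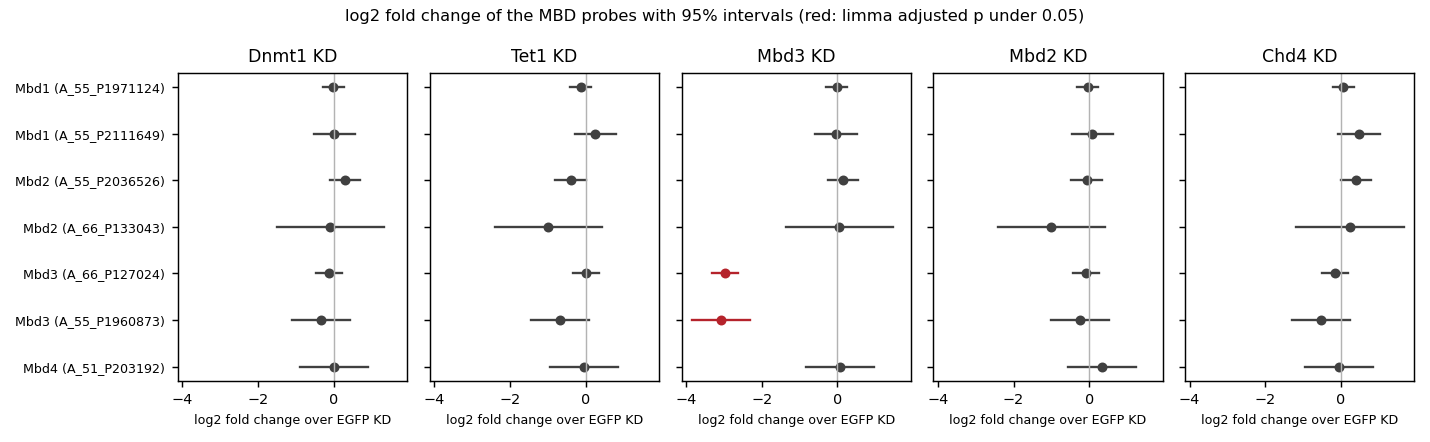
log2 fold change over EGFP KD (x axis) of the 7 MBD probes (y axis) in each of the 5 KDs, with 95% intervals from limma; red marks an adjusted p under 0.05. The 2 Mbd3 probes in Mbd3 KD, at -2.96 and -3.08, are the red ones, and the widest intervals, of 1.42 to either side, belong to Mbd2 probe A_66_P133043.

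Other readers of methylated DNA and the partners of the MBD proteins were compared next, as 53 genes in 7 lists of which 51 had a tested probe. In Mbd3 KD 0 of the 51 were called by limma, beside 0.761% of all probes, with 8 at an unadjusted p under 0.05, beside 9.78% of all probes. Chd4 KD gave 1 called, beside 3.12%, with 9 at that level, beside 12.8%. Dnmt1 KD gave 0, with 2 (4.92% of all probes), Tet1 KD 0, with 1 (3.12%), and Mbd2 KD 0, with 0 (2.22%). Without the 2 arrays at odds with their labels, Tet1 KD and Mbd2 KD each rested on 1 array, and counts for them are not given. The 1 called in Chd4 KD was Chd4, the NuRD ATPase, in its own KD. It had 2.51 and 3.04 in Chd4 KD against 4.12 and 3.97 in EGFP KD, so the log2 fold change was -1.27, with a standard error of 0.24 and a limma adjusted p of 0.043. The call was lost with quantile normalization, with normexp, with no filter on dim probes, with the 4 arrays, without the 2 arrays at odds with their labels, and without any 1 array of EGFP KD, Tet1 KD, Mbd2 KD or Chd4 KD. Of 14 measured NuRD partners of Mbd2 and Mbd3, the median log2 fold change was -0.02 in Mbd3 KD, beside -0.03 over all probes, and 0.02 in Mbd2 KD, beside 0.00 over all probes, or -0.01 without the 2 arrays. Single partners ran from -0.42 (Prmt5) to 0.84 (Chd5) in Mbd3 KD, none called. In Chd4 KD they ran from -1.27 (Chd4) to 1.29 (Chd5, limma adjusted p = 0.077).

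Among the other MBD-domain proteins 0 of 6 were called in any KD. In Mbd3 KD, Baz2b, a bromodomain protein, differed by 0.76 (standard error 0.15, limma adjusted p = 0.099), and Baz2a, a subunit of the nucleolar remodelling complex, by 0.28. Both Mbd3-like genes, Mbd3l1 and Mbd3l2, had log2 fold changes of -0.21 and -0.20. Of 6 other methylated-DNA readers 0 were called, and Uhrf1, which brings Dnmt1 to hemimethylated CpG, differed by -0.52 and the imprint-protecting zinc finger protein Zfp57 by -0.40 in Mbd3 KD.

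The partners of Mbd1 and Mbd4 gave no call either. Of 5 Mbd1 partners, Atf7ip, which links Mbd1 to the H3K9 methyltransferase Setdb1, differed by -0.56 in Mbd3 KD (limma adjusted p = 0.38), and the H3K9 methyltransferase Suv39h1 by 0.47. Of 11 genes of Mbd4's partners and of base excision repair, DNA polymerase beta (Polb) differed by 0.82 in Mbd3 KD (limma adjusted p = 0.42) and the glycosylase Neil1 by -0.49. Of 7 writers and erasers of DNA methylation, the de novo methyltransferase Dnmt3b differed by -0.42 (limma adjusted p = 0.20) and the dioxygenase Tet2 by -0.22 in Mbd3 KD.

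**Figure D5:**
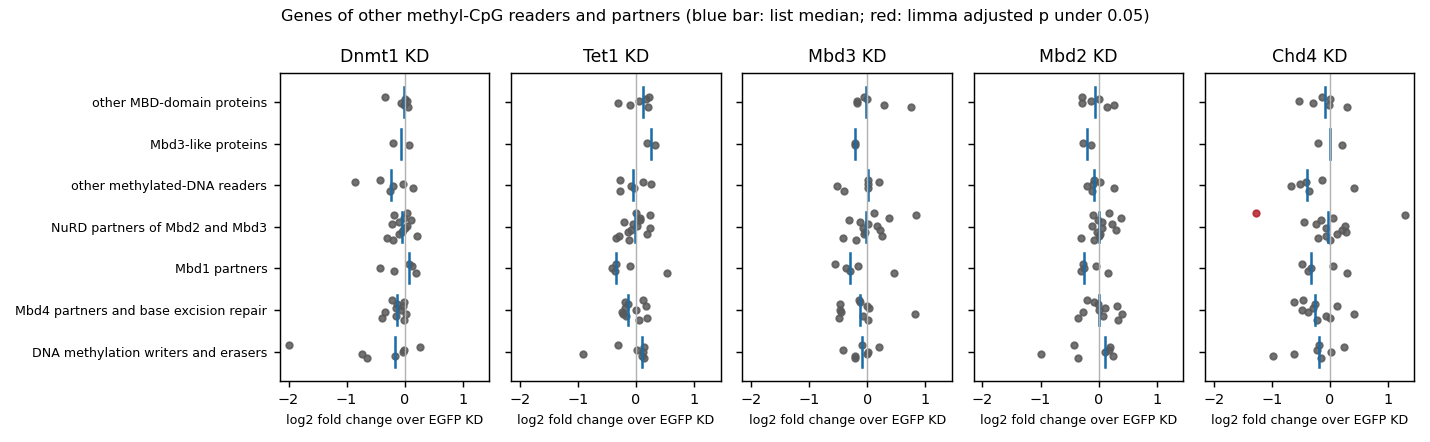
log2 fold change over EGFP KD (x axis) of each measured gene, by its brightest probe, in 7 lists of readers, partners and methylation enzymes (y axis), for each of the 5 KDs; blue bars are list medians and red marks a limma adjusted p under 0.05. Chd4 in Chd4 KD, at -1.27, is the red point, and Dnmt1 in Dnmt1 KD, at -1.99, lies farthest from 0.

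Markers of other cell types were called only in Mbd3 KD and Chd4 KD, the KDs in which most probes were called. Of 5 tested fibroblast markers, Thy1 rose by 1.28 (log2) in Mbd3 KD, with a limma adjusted p of 0.011, and by 1.42 in Chd4 KD, with 0.0019, and Col1a1 rose by 2.50 in Chd4 KD, with 0.0019. The other members differed by -0.57 (Col3a1) to 0.25 (Col1a1) in Mbd3 KD and by -0.74 (Col3a1) to -0.01 (Col1a2) in Chd4 KD, none called, and the list's median was -0.23 and -0.01, beside -0.03 and 0.00 over all probes. Thy1 was the brightest of the 5. The list's summed log2 signal was 3.15 to 3.20 in Mbd3 KD and 3.17 to 3.53 in Chd4 KD, against 2.08 to 2.27 in EGFP KD, and Twist2 was at the floor of -4.86 on both Mbd3 KD arrays. Of 6 trophectoderm markers, Krt18 rose in Chd4 KD (1.19, limma adjusted p = 0.020) and 0 were called in Mbd3 KD, with Cdx2 at the floor on both arrays of each of these KDs. In Mbd3 KD Hand1 differed by -1.05 (unadjusted p = 0.010, limma adjusted p = 0.25) and Cdx2 by -0.25, while Krt8 differed by 0.87 and Krt18, the brightest member, by 0.58, and the list's median was 0.27, or 0.34 in Chd4 KD. The summed trophectoderm signal was 2.16 to 2.27 in Mbd3 KD and 2.58 to 2.71 in Chd4 KD, against 1.64 to 1.70 in EGFP KD. Of 6 primitive endoderm markers 0 were called. Gata4 differed by 0.85 (Chd4 KD) to 1.58 (Dnmt1 KD) over the KDs, and Gata6 by -1.09 (Mbd3 KD) to 0.29 (Tet1 KD). Sox7 differed by 1.42 in Chd4 KD (limma adjusted p = 0.071). The list's median ran from 0.07 (Mbd2 KD) to 0.64 (Chd4 KD), beside 0.00 over all probes in both. The part of other cells in the MBD values was not tested.

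For each MBD probe, the 3 genes whose log2 signal followed it most closely over the 12 arrays were taken from 15405 genes measured on all arrays. For the Mbd3 probes they were Gadd45g, a growth arrest and DNA damage gene (Pearson's r = 0.97), Kif16b (0.94) and Ntpcr (0.93) for A_66_P127024, and the poly(ADP-ribose) polymerase Parp1 (0.97), the germline and preimplantation gene Dppa3 (0.95) and Spata13 (0.95) for A_55_P1960873. With the mean of each slide removed these 6 values ran from 0.93 to 0.97. Over the 10 arrays that are not Mbd3 KD they came to 0.82 for Gadd45g, -0.074 for Kif16b and 0.29 for Ntpcr, and to 0.82 for Parp1, 0.73 for Dppa3 and 0.65 for Spata13. No gene was shared between the 2 Mbd3 probes.

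For A_66_P133043 of Mbd2 they were the deacetylase Sirt6 (0.85), Zfp638 (0.82) and Erp44 (0.81), and for A_55_P2036526 Tnfrsf23 (0.90), Fam83d (0.88) and Otulin (0.87). Fam83d was also among those of Mbd1 probe A_55_P1971124 (0.88), with Gstm3 and Rdh12 (0.89 each). Mbd1 probe A_55_P2111649 had Acap3 (0.92), Btbd17 (0.91) and Fbxw22 (0.91), of which the last came to 0.68 with slide means removed. Mbd4 had AA388235 (0.93), Pacsin3 (0.93) and Mtpn (0.90). These are the highest of 15405 correlations over 12 arrays that share slides and groups, and are given as a description.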

How the data were processed

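The authors hybridised Cy3-labelled cRNA of 12 samples, 1 per array, and deposited the scanner output of Feature Extraction 10.7.1.1, whose processed intensity has the background taken off but is not scaled from array to array. A second deposited table, of 12459 rows and 10 KD arrays, gives log2 values against EGFP KD with no stated scale. Its values followed the log2 of the ratio between quantile-normalized log2 signals, and 4 of its rows matched Mbd2 and Mbd3 probes. The study's methods name limma for the analysis, and the normalization is not given in the sources used here.

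Control spots (1377) and outlier spots were left out. Intensities were divided by the array's 75th percentile, floored at a log2 of -4.86, and log2 was taken. Spots of a probe were averaged, and 36113 of 39429 probes, well above background on 2 arrays of some group, were tested. Accessions were named through a RefSeq gene table of GRCm38.p6, which named 71.4% of spots. A model with 6 groups was fitted over all 12 arrays with limma 3.58.1 in R 4.3.3, with the Benjamini-Hochberg adjustment within each comparison and a threshold of 0.05. The steps were tested on simulated data of 36113 probes, with the same spread in all groups and independent noise. They recovered 39% to 58% of probes changed by 2 (log2) per KD and 15% to 27% of those changed by 1. False calls numbered 1 to 11 per KD. The simulated KDs differed only by the random draw, so these shares do not rank the KDs. Correlation p-values are two-sided, from 100000 permutations. The number of arrays limits the precision.

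The genes, the lists and the rules were chosen with earlier results of these data known. Genes named are every MBD probe, the targeted genes, the called genes of each list or else the 2 of its genes with the largest change in Mbd3 KD, and the 3 genes most like each MBD probe. Further genes of some lists are named to show the spread of the list. Alternatives were quantile normalization, normexp background correction (offset 50), the authors' deposited table, other filters on dim probes, the brightest probe of each gene, a block for the replicate number or for the slide, a fit on just the compared 4 arrays, and each array left out. Leaving out the 2 arrays at odds with their labels was chosen after seeing the data.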

Additional observations from a re-analysis of the deposited data

Results flagged for a closer look

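The Mbd3 probes differed between Mbd3 KD and each other KD by a test of the difference itself. For A_66_P127024 the log2 difference was -2.8 against Chd4 KD, -2.83 against Dnmt1 KD, -2.88 against Mbd2 KD and -2.97 against Tet1 KD. For A_55_P1960873 it was -2.55 against Chd4 KD, -2.73 against Dnmt1 KD, -2.83 against Mbd2 KD and -2.4 against Tet1 KD. Without the 2 arrays at odds with their labels A_66_P127024 was called only against Mbd2 KD and Chd4 KD and A_55_P1960873 against none. Neither probe was called against Tet1 KD with slide as a block, or against any KD with only the 4 arrays compared. With 2 arrays in each group, no group was large enough to look for an outlying array by rule.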

How the results depend on the processing

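The fall of Mbd3 in Mbd3 KD kept its direction under every alternative run. It ran from -3.07 to -2.76 for A_66_P127024, called in 19 of 21 alternatives, and from -3.35 to -2.67 for A_55_P1960873, called in 13 of 20. Its size could move only with quantile normalization, normexp, slide as a block, or an EGFP KD or Mbd3 KD array left out. The other fits to the scanner files could change only the spread and the adjusted p. The calls were lost at -2.96 and -3.08 with only the 4 arrays of the comparison and without the 2 arrays at odds with their labels (adjusted p = 0.46 and 0.058, and 0.46 and 0.0699), and on A_55_P1960873 also with normexp background correction at -2.67 (0.12) and with slide as a block at -3.11 (0.064). Leaving out 1 array at a time gave -3.07 to -2.85 for A_66_P127024 and -3.35 to -2.8 for A_55_P1960873. The number of MBD probes called in Mbd3 KD was 1 with normexp, with the brightest probe of each gene (a single Mbd3 probe is then tested) and with slide as a block, 0 with the 4 arrays and without the 2 arrays, and 1 to 2 with 1 array left out. Against Mbd2 KD, Dnmt1 KD, Tet1 KD and Chd4 KD the count of 2 fell to 1 with normexp and with the brightest probe, and with slide as a block to 1, or 0 against Tet1 KD. It was 0 with the 4 arrays, 1 against Mbd2 KD and Chd4 KD and 0 against Dnmt1 KD and Tet1 KD without the 2 arrays. With 1 array left out it was 1 against Dnmt1 KD and Tet1 KD, and 1 to 2 against Mbd2 KD and Chd4 KD. Over the whole array, calls in Mbd3 KD went from 275 to 157 with quantile normalization, 2 with normexp, 132 with probes measured on all arrays, 52 with slide as a block, 0 with the 4 arrays and 34 (without EGFP KD replicate 1) to 156 with 1 array left out. In the authors' deposited table, on its own smaller scale, Mbd3 read -0.29 and -0.37 in Mbd3 KD and Mbd2 probe A_55_P2036526 read 0.012 in Mbd2 KD. Mbd2 probe A_66_P133043 in Mbd2 KD ran from -1.77 without replicate 1 to -0.23 without replicate 2.

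Of 33 results that were not called, 0 were called under any alternative fitted to the scanner files, and the direction of 20 turned under some. In the authors' deposited table, which was not tested, the sign of 4 of 20 turned, and 21 turned in one or the other. The 4 were A_66_P133043 in Dnmt1 KD (0.0035) and in Mbd3 KD (-0.015), A_55_P2036526 in Mbd2 KD (0.012) and A_66_P127024 in Tet1 KD (-0.0048). With normexp, Mbd1 probe A_55_P2111649 gave -0.52 in Chd4 KD, -0.9 in Dnmt1 KD, -0.58 in Mbd2 KD and -0.79 in Tet1 KD, Mbd1 probe A_55_P1971124 gave -0.13 in Chd4 KD, Mbd2 probe A_66_P133043 gave -0.31 in Mbd3 KD and -0.02 in Chd4 KD, Mbd3 probe A_66_P127024 gave 0.07 in Mbd2 KD and Mbd4 gave -0.16 in Dnmt1 KD. With quantile normalization A_55_P1971124 gave -0.02 in Chd4 KD, A_55_P2111649 gave 0.03 in Mbd3 KD and -0.1 in Tet1 KD, and A_66_P127024 gave 0.04 in Chd4 KD. With slide as a block A_55_P1971124 gave 0.04 in Dnmt1 KD, 0.03 in Mbd3 KD and 0.0 in Mbd2 KD, A_55_P2111649 gave 0.12 in Mbd3 KD and -0.03 in Tet1 KD, A_66_P133043 gave -0.02 in Mbd3 KD, A_66_P127024 gave -0.11 in Tet1 KD and Mbd4 gave -0.11 in Dnmt1 KD and -0.06 in Mbd3 KD. Without the 2 arrays A_66_P127024 gave -0.14 and Mbd4 gave 0.01 in Tet1 KD. With 1 array left out, A_55_P1971124 ranged from -0.04 to 0.15 in Chd4 KD, -0.08 to 0.06 in Dnmt1 KD, -0.12 to 0.02 in Mbd2 KD and -0.11 to 0.08 in Mbd3 KD. A_55_P2111649 ranged from -0.31 to 0.34 in Dnmt1 KD, -0.07 to 0.59 in Tet1 KD, -0.36 to 0.29 in Mbd3 KD and -0.25 to 0.41 in Mbd2 KD. A_66_P133043 ranged from -0.25 to 0.06 in Dnmt1 KD and -0.13 to 0.23 in Mbd3 KD, and A_66_P127024 from -0.14 to 0.16 in Tet1 KD and -0.17 to 0.0 in Mbd2 KD. Mbd4 ranged from -0.13 to 0.15 in Dnmt1 KD, -0.11 to 0.01 in Tet1 KD, -0.34 to 1.0 in Mbd2 KD, -0.12 to 0.02 in Chd4 KD and -0.05 to 0.17 in Mbd3 KD. The causes were not tested. Of the readers and partners, 0 were called in Chd4 KD with quantile normalization, normexp, no filter on dim probes, the 4 arrays or without the 2 arrays, 2 with the replicate block and with slide as a block, and 0 to 1 with 1 array left out.

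The replicate numbers were not taken as pairs, since the labels give no shared culture or day and the correlation of replicate differences between groups ran from -0.046 to 0.76. With the replicate block, Mbd3 in Mbd3 KD was -2.96 and -3.08 and 291 probes were called there. With 2 arrays a group, small changes of these probes could not be seen.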
